A study of Mus musculus with 8 samples.

Results

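The enzymes of glycolysis, the pentose phosphate pathway and glycogen metabolism were followed as 36 genes, chosen by name from the deposited count table for the steps they catalyse. All 36 are among the 56980 gene IDs listed, and all 36 are among the 18905 genes that passed the filter on low counts. They comprise 17 genes of the glycolytic steps and lactate dehydrogenase, 5 regulators of glycolytic flux, 8 pentose phosphate genes, 4 glycogen genes and 2 entry enzymes of the hexosamine and galactose routes.

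RNA was sequenced from cultured mouse oligodendrocyte progenitors, which divide and give rise to the myelin-forming cells of the brain, in 4 libraries at low glucose (LG) and 4 at high glucose (HG). Per the labels, all cells came from cortices of wild-type (WT) C57BL/6 pups of either sex, aged 6 to 8 postnatal days, after capture on anti-CD140α (PDGFRα) dishes and removal of lectin-binding cells, and all were kept in 10 ng/mL PDGF-AA. The recorded culture settings also name bFGF at 20 ng/mL. LG cultures began at 25 mM glucose and were diluted stepwise on days 1, 2 and 3 to 12.5, then 5, then 2.5 mM, whereas HG cultures stayed at 25 mM, and both were collected on day 5. Libraries 1 and 2 of each group carry the same preparation code in their descriptions (called A here), library 3 has another code (B) and library 4 another again (C), although the labels call the preparations independent, so n = 4 counts libraries and p-values measure the spread between them.

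Total counts ran from 53869166 to 65733928 per library in LG and from 50864130 to 61915909 in HG (two-sided exact permutation test over 70 assignments, p = 0.543). All 7 progenitor markers, Pdgfra among them, passed the filter, and their summed level was 6928 to 9864 CPM (counts scaled to a common library size, with TMM factors) in LG and 5920 to 9646 CPM in HG. Markers of microglia, of which Cx3cr1 was at 0 in all libraries, summed to at most 0.555 CPM, and those of endothelium, of which Cldn5 and Cdh5 were at 0, to at most 3.86 CPM. Neuron markers summed to 57.7 to 73.0 CPM in LG and 52.2 to 73.4 CPM in HG. Fibroblast markers summed to 32.4 to 38.9 CPM in LG and 25.2 to 41.6 CPM in HG. All 7 astrocyte markers were present, at a sum of 468 to 1546 CPM in LG and 541 to 1465 CPM in HG (exact permutation p = 0.943). That sum ran from 1422 to 1546 CPM in preparation A and from 468 to 613 CPM in preparations B and C, a difference that returns below beside the genes it moves with. With such a spread, the unpaired permutation test could hardly see a difference between LG and HG. In pairs 1 to 4 the sum was 1546, 1422, 586 and 468 CPM in LG, against 1438, 1465, 613 and 541 CPM in HG.

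Glycolysis splits a molecule of glucose into pyruvate and yields ATP and NADH, and lactate dehydrogenase recycles the NADH by turning pyruvate into lactate. The pentose phosphate pathway branches off at glucose 6-phosphate, makes NADPH in its oxidative arm and interconverts sugars in its non-oxidative arm, supplying ribose for nucleotides and reducing power for lipid synthesis. Glycogen is the storage polymer of glucose, built by glycogen synthase and broken down by glycogen phosphorylase, and in the brain it is held mainly by astrocytes.

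The glycolytic genes ran in level from 0.999 (Eno2) to 246 (Gapdh) CPM per kilobase of merged exons, the scale on which levels of different genes are set side by side here. Gapdh, which oxidises glyceraldehyde 3-phosphate, led at 257 ± 29.6 in LG and 236 ± 6.43 in HG CPM per kilobase (SD, n = 4 each). Pgk1, the first ATP-yielding step, had a level of 223 CPM per kilobase over all 8 libraries, Pgam1 (phosphoglycerate mutase) 184, Eno1 (enolase) 182 and Pkm (pyruvate kinase) 176. Taken singly, the genes of the steps before Gapdh were lower than these. Hk1 (hexokinase) was at 19.6, Gpi1 (glucose 6-phosphate isomerase) at 38.5, Pfkm (phosphofructokinase) at 52.6 and Tpi1 (triosephosphate isomerase) at 26.7 CPM per kilobase. The aldolases stood above those, with Aldoa at 92.3 in LG and 87.7 in HG, and Aldoc at 84.5 CPM per kilobase over all 8 libraries. As both isoforms carry the aldolase step at close levels, that step as a whole is not shown to be lower. Among the pentose phosphate genes, the transaldolase Taldo1 stood at 84.6 and the transketolase Tkt at 45.1 CPM per kilobase, above the NADPH-making G6pdx at 31.5 and Pgd at 19.8. The order of the glycogen genes depended on the preparation: the phosphorylase Pygb led in preparation A at 32.2 CPM per kilobase, while in B and C it stood at 6.94 and 6.63, below Ugp2 and below the synthase Gys1 at 12.4 and 12.3. The branching enzyme Gbe1 was lowest in all preparations, at 2.39 CPM per kilobase in A, 1.93 in B and 1.83 in C. The order at the top rests on the length used: per kilobase of the longest transcript Eno1 led at 484, followed by Pkm at 362 and Gapdh at 309 CPM per kilobase. Gapdh has 91 near-identical copies elsewhere in the table, whose counts came to 56.1% to 59.5% of its own, so its level is uncertain. The copies of Eno1 held 29.1% to 35.6% of its counts, those of Pgam1 25.1% to 27.1% and those of Pgk1 22.6% to 32.0%. Adding the copies moved no log2 fold change in LG against HG by more than 0.011.

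**Figure D1:**
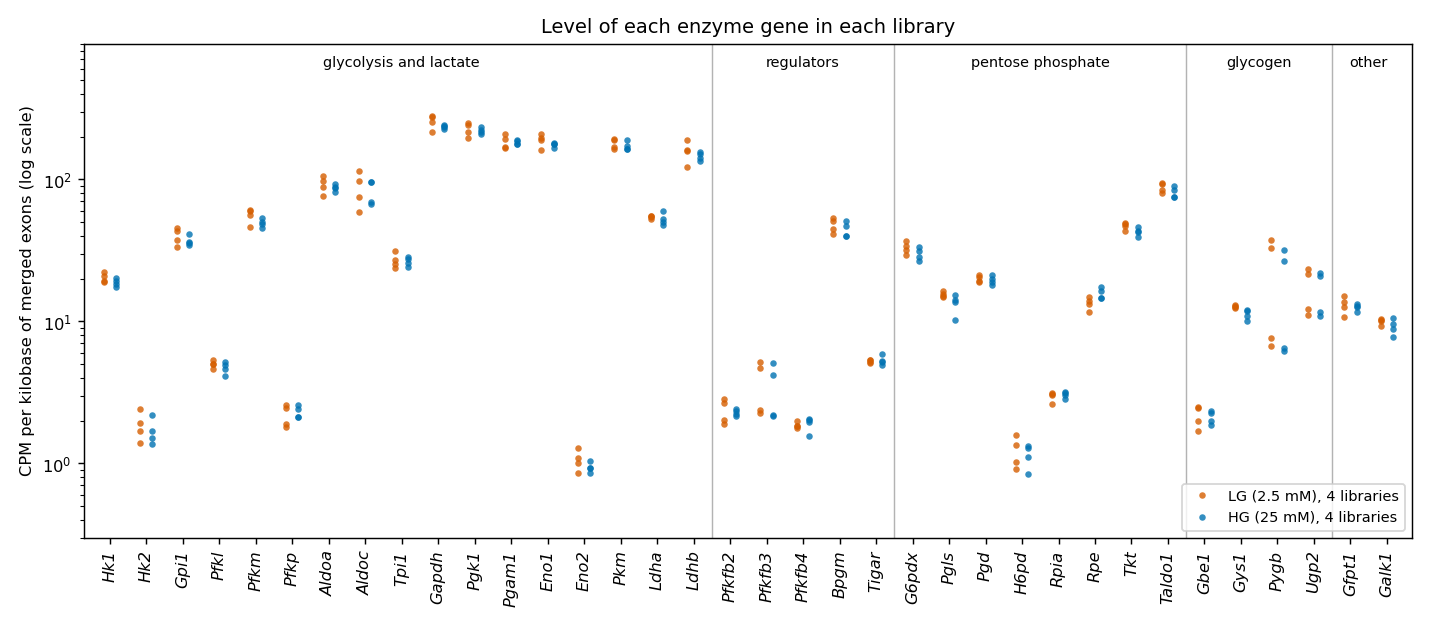
Level of each of the 36 enzyme genes in CPM per kilobase of merged exons (log scale), with 1 point per library, LG libraries left of HG libraries, grouped by pathway. The LG and HG points of each gene largely overlap, while Pygb, Ugp2 and Pfkfb3 split into a high and a low cluster that both groups share.

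Hexokinase, phosphofructokinase and enolase were each carried mainly by 1 isoform, and none of 7 isoform ratios passed the test between LG and HG, which a single ratio could not do in this design. The per-kilobase level of Hk2 was 0.0890 times that of Hk1 (range over 8 libraries 0.0662 to 0.126), and Eno2, the neuronal enolase, had 0.00545 times the level of Eno1. Pfkm, the muscle-type phosphofructokinase, had 10.8 times the per-kilobase level of the liver-type Pfkl (8.56 to 13.1), and the platelet-type Pfkp 0.459 times that of Pfkl. The aldolase isoforms were close, with Aldoc at 0.921 times Aldoa (0.782 to 1.09), or 0.574 times per kilobase of the longest transcript. Ldhb had 2.83 times the per-kilobase level of Ldha (2.27 to 3.40), or 1.87 times per kilobase of the longest transcript. By that length Pfkm had 6.99 times and Pfkp 0.396 times the level of Pfkl. Hk2 then had 0.0483 times the level of Hk1, and Eno2 0.00345 times that of Eno1. Pfkfb3, a kinase that makes the phosphofructokinase activator fructose 2,6-bisphosphate, had 1.42 times the per-kilobase level of Pfkfb2 over all libraries (0.844 to 2.48), with 2.02 times in preparation A and 0.991 times in B and C.

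On the log2 scale, the Ldhb to Ldha count ratio averaged 0.44 in LG and 0.41 in HG (exact permutation test over 70 assignments, p = 0.771). For Pfkm over Pfkl the ratio was 2.47 in LG and 2.40 in HG (exact permutation p = 0.629). The largest difference was that of Pfkp over Pfkl, at -0.22 in LG and -0.02 in HG, lower in LG in 4 of 4 pairs (difference -0.20, exact permutation p = 0.171). Exons of Pfkp overlap Pitrm1, a gene on the opposite strand at 79.7 CPM, against 30.1 CPM for Pfkp. Those of Pfkm overlap Senp1, also on the opposite strand, at 68.1 CPM. The strand setting of the counts is not given in the sources used here. After Benjamini-Hochberg adjustment over the 7 ratios, the exact permutation p was 0.971 for each of them. The smallest p that 70 assignments allow is 0.0286, so 1 ratio alone could not pass the adjustment, and the exact sign-flip test over 4 pairs cannot go below 0.125.

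None of the 36 enzyme genes passed between LG and HG in the quasi-likelihood test of edgeR, with Benjamini-Hochberg adjustment over all genes and a threshold of 0.05. The same count was 0 of 18905 genes (0%), with the smallest adjusted p at 0.9999. An unadjusted p under 0.05 was found for 2 members (5.56%), Rpe and Gys1, beside 745 genes or 3.94% of all tested. With the replicate number entered as a block, which compares LG and HG within each numbered pair, 79 genes passed (0.418%) and again 0 enzymes, with the smallest adjusted p among them at 0.209 for Rpe. In that fit 5 members had an unadjusted p under 0.05 (13.9%), namely Pfkm, Pgls, Rpe, Gys1 and Pygb, a share close to the 13.4% of all genes (6.02% higher and 7.43% lower in LG). Adding offsets for GC content and length brought 148 genes past the threshold (0.783%) and 0 enzymes, and DESeq2 called 7 genes and 0 enzymes.

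Small positive differences were common. The log2 fold change was positive for 31 of 36 members with or without the block (86.1%), against 51.4% of all genes without it and 50.4% with it. The members' median was 0.092 without the block and 0.085 with it, beside 0.0051 and 0.0015 for all genes. With the block and the offsets 27 of 36 were positive (75%), against 55.9% of all genes, and the median was 0.059, against 0.021 for all genes. The 95% intervals of the fit with the block reached at most 0.43 for Eno2 (1.35-fold) and at least -0.40 for Rpe (0.759-fold), the widest bounds of any enzyme. As these are bulk libraries, a difference in RNA per cell and a difference in the share of cells that make it cannot be told apart.

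**Figure D2:**
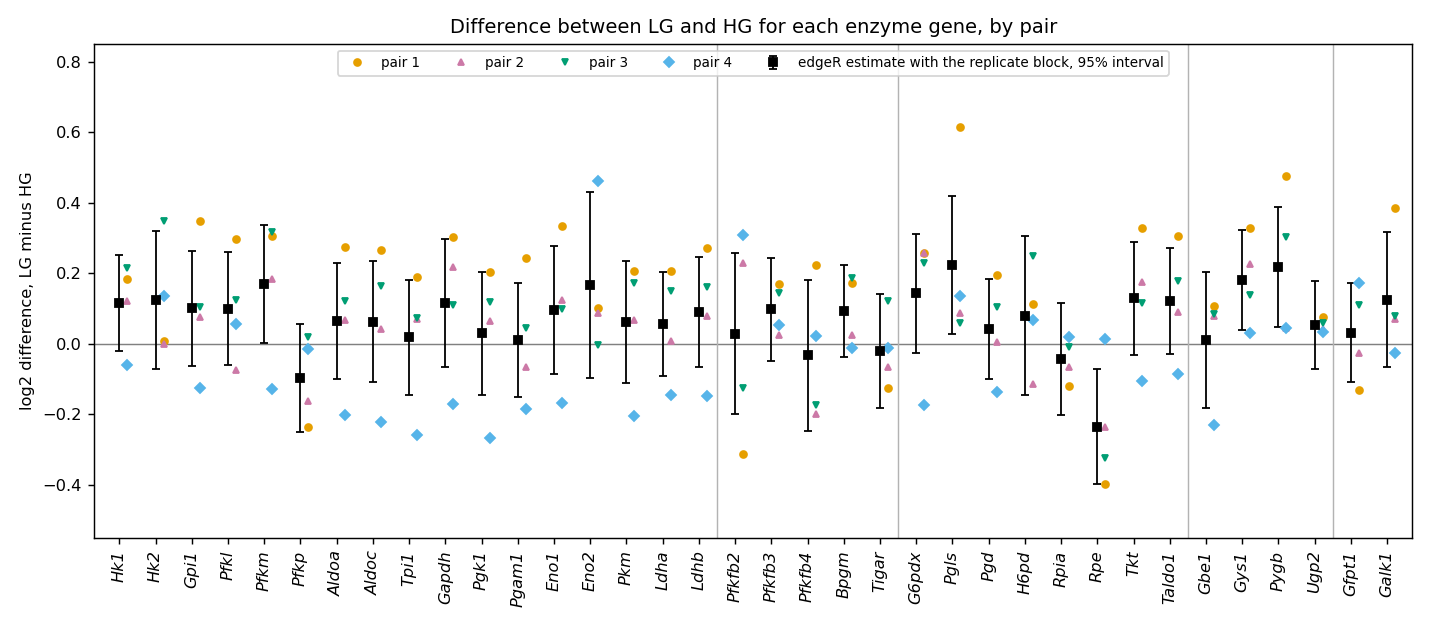
Log2 difference between LG and HG for each enzyme gene, with coloured symbols for the 4 numbered pairs and black squares for the edgeR estimate with the replicate block and its 95% interval. Most squares lie slightly above 0, and for 14 of the 17 glycolytic genes the pair 4 symbol lies below 0, while most symbols of pairs 1 to 3 lie above it.

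Most of the 17 glycolytic genes were higher in LG in pairs 1 to 3 and lower in LG in pair 4. Their median log2 difference was 0.24 in pair 1, 0.068 in pair 2, 0.12 in pair 3 and -0.15 in pair 4, beside 0.00017, 0.0063, 0.0044 and -0.0089 for all genes. LG was higher for 16 of 17 of them in pair 1, 14 in pair 2, 16 in pair 3 and 3 in pair 4. That sequence of signs was held by 12 of 17 glycolytic genes and 19 of the 36 enzymes (52.8%), against 13.1% of all genes. The sequence was read from the medians of these same genes, so the shares describe it and are no support for a difference. The libraries' rank correlation of counts with GC content had the same signs by pair, with LG minus HG at 0.50 in pair 1, 0.14 in pair 2, 0.30 in pair 3 and -0.14 in pair 4. The enzymes' median GC content was 52.7%, against 49.3% for all genes. With the GC and length trend of each library removed, the glycolytic medians were 0.13, 0.051, 0.093 and -0.13 in pairs 1 to 4, beside 0.043, 0.022, 0.033 and -0.024 for all genes, so the signs were as before. Over libraries, these 17 genes took 0.559% ± 0.0479 of all counts in LG and 0.528% ± 0.0180 in HG (SD, n = 4 each).

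**Figure D3:**
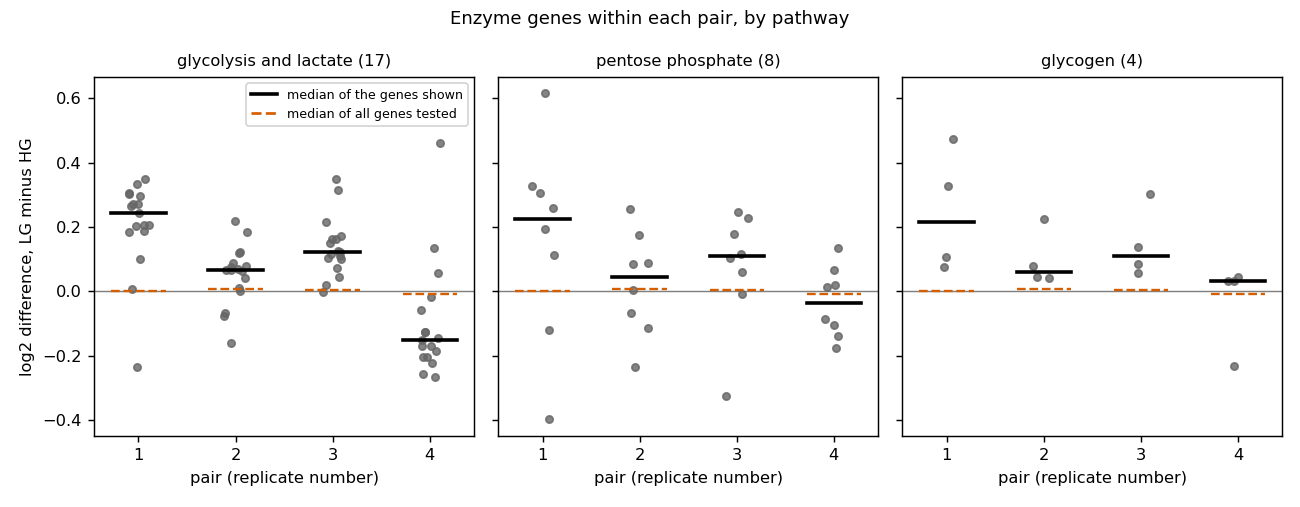
Log2 difference LG minus HG of each glycolytic, pentose phosphate and glycogen gene within the 4 numbered pairs, with 1 grey point per gene, a black bar for the group's median and a dashed line for the median of all genes. The glycolytic median lies at 0.24, 0.068, 0.12 and -0.15 in pairs 1 to 4, while the dashed lines stay near 0.

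The enzymes' p-values in the fit with the block depended on which pairs entered. An unadjusted p under 0.05 was found for 1 of 36 enzymes without pair 1 (2.78%, against 7.91% of all genes), 3 without pair 2 (8.33%, against 8.35%), 3 without pair 3 (8.33%, against 11.8%) and 18 without pair 4 (50%, against 21.9%). Pair 4 is the one seen to run opposite for these genes, so the last count describes its weight and is no support for a difference. In each of the 4 fits 0 enzymes passed, while of all genes 6 did so when pair 1 was left out (0.0316%), 0 for pair 2 (0%), 39 for pair 3 (0.204%) and 148 for pair 4 (0.787%). The smallest Benjamini-Hochberg adjusted p by edgeR among the enzymes was 0.0537, without pair 4, shared by Pfkm at a log2 fold change of 0.27 and Rpe at -0.32. The pair 4 difference itself was -0.13 for Pfkm and 0.015 for Rpe.

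At the entry steps, Hk1, which traps glucose in the cell as glucose 6-phosphate, had 179, 163, 191 and 165 CPM in LG libraries 1 to 4, against 157, 150.0, 164 and 171 CPM in HG libraries 1 to 4. Its LG libraries were higher in pairs 1 to 3, and the groups overlapped (log2 fold change 0.11 with the block, edgeR, Benjamini-Hochberg adjusted p = 0.450). Hk2, the inducible hexokinase, was at 8.27, 10.1, 11.5 and 14.5 CPM in LG, against 8.23, 10.1, 9.05 and 13.2 CPM in HG, with both groups highest in library 4. Gpi1 had 295, 279, 242 and 214 CPM in LG, against 232, 265, 225 and 234 CPM in HG, high in LG 1 and LG 2 and lowest in LG 4.

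Pfkm, the main phosphofructokinase here and the rate-setting step of glycolysis, gave the smallest p of the glycolytic genes. The gene lies at chr15:98092589-98132451, plus strand, in the GRCm38 annotation. Its level was 200.0, 204, 188 and 154 CPM in LG, against 162, 179, 151 and 168 CPM in HG, or 186 ± 22.6 CPM in LG and 165 ± 11.7 CPM in HG (SD, n = 4 each). LG 4 was lower than 3 of the 4 HG libraries, so the groups overlapped. The log2 fold change was 0.17 with the block (SE 0.0757, 95% interval 0.0032 to 0.34), which did not pass after adjustment (edgeR, Benjamini-Hochberg adjusted p = 0.361). Pfkl averaged 33.6 ± 1.99 CPM in LG and 31.4 ± 3.05 CPM in HG (SD, n = 4 each) and Pfkp 29.2 ± 5.20 CPM in LG and 31.0 ± 3.18 CPM in HG (SD, n = 4 each). Pfkp was the one glycolytic gene with a negative log2 fold change, at -0.097 (edgeR with the block, Benjamini-Hochberg adjusted p = 0.575).

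The aldolases cleave fructose 1,6-bisphosphate into triose phosphates. Aldoa had 309.9, 285, 259 and 221 CPM in LG, against 256, 272, 238 and 255 CPM in HG. Aldoc, an isoform of brain, had 376, 320.0, 246 and 194 CPM in LG, against 312, 311, 219.7 and 226 CPM in HG, and was high in libraries 1 and 2 of both groups. Tpi1 was at 86.5, 74.4, 69.8 and 65.5 CPM in LG, against 75.9, 70.8, 66.4 and 78.3 CPM in HG, with the lowest value of all in LG 4 and the highest in LG 1. None of these groups separated.

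In the ATP-yielding part of the pathway, Gapdh had 1162, 1141, 1047 and 893 CPM in LG, against 941, 980.1, 969 and 1005 CPM in HG. LG ranged more widely than HG, with 3 LG libraries above every HG library and LG 4 below them all, and Gapdh averaged 1061 ± 122 CPM in LG and 974 ± 26.6 CPM in HG (SD, n = 4 each). Its log2 fold change of 0.12 did not pass (edgeR with the block, Benjamini-Hochberg adjusted p = 0.575). Eno1 followed the same order, with 1128, 1047, 1027 and 865 CPM in LG, against 896, 961, 958 and 972 CPM in HG, and a log2 fold change of 0.097. Pgk1 was at 559.6, 488, 546 and 437 CPM in LG, against 486, 467, 503 and 525 CPM in HG. Pgam1 was at 416, 337, 384 and 332 CPM in LG, against 352, 352, 372 and 377 CPM in HG. Both had their lowest library in LG 4, and log2 fold changes of 0.030 for Pgk1 and 0.0096 for Pgam1. Pkm, which makes pyruvate, had 949, 853, 972 and 823 CPM in LG, against 822, 814, 862 and 949 CPM in HG, highest in LG 3 and lowest in HG 2. Eno2 was rare, at 4.72, 5.17, 4.02 and 6.04 CPM in LG, against 4.40, 4.86, 4.02 and 4.38 CPM in HG, and its pair 4 difference of 0.46 was the largest of any enzyme in that pair.

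Lactate dehydrogenase did not separate the groups either. Ldha, the subunit that favours lactate production, was at 183, 175, 183 and 179 CPM in LG, against 159, 174, 165 and 198 CPM in HG, with both the lowest and the highest library in HG. Ldhb, which favours the return to pyruvate, was at 295, 252, 249.6 and 193 CPM in LG, against 245, 239, 223 and 214 CPM in HG, highest in LG 1 and lowest in LG 4. The log2 fold change was 0.055 for Ldha and 0.090 for Ldhb (edgeR with the block, Benjamini-Hochberg adjusted p = 0.764 and 0.613).

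Of the 5 regulators, 3 had a positive and 2 a negative log2 fold change. Pfkfb2 and Pfkfb4, kinase and phosphatase isoforms that set fructose 2,6-bisphosphate, were at 0.029 and -0.033, and Tigar, a fructose bisphosphatase that lowers glycolytic flux, at -0.020. Bpgm, the 2,3-bisphosphoglycerate mutase, had 161, 147, 191 and 183 CPM in LG, against 143, 145, 168 and 184 CPM in HG, with higher values in libraries 3 and 4 of both groups. Pfkfb3 had 35.5, 39.2, 18.0 and 17.1 CPM in LG, against 31.6, 38.5, 16.3 and 16.5 CPM in HG, higher in libraries 1 and 2 of both groups and higher in LG in 4 of 4 pairs, by a log2 difference of 0.17, 0.026, 0.15 and 0.052 in pairs 1 to 4. Its log2 fold change was 0.098 (edgeR with the block, Benjamini-Hochberg adjusted p = 0.553).

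The pentose phosphate genes held both the largest negative difference and one of the largest positive ones of the list. In the oxidative arm, G6pdx, the NADPH-making entry enzyme, had 106, 97.8, 113 and 90.8 CPM in LG, against 88.2, 81.8, 96.4 and 103 CPM in HG. Its log2 difference was 0.26, 0.26, 0.23 and -0.17 in pairs 1 to 4, even in the first 3 pairs and opposite in the last (fold change 0.14 on the log2 scale, edgeR with the block, Benjamini-Hochberg adjusted p = 0.451). Pgls, the 6-phosphogluconolactonase at chr8:71592176-71601092, plus strand, had 59.0, 61.6, 55.7 and 57.0 CPM in LG, against 38.5, 58.0, 53.4 and 51.8 CPM in HG. HG 1 was far below the other 7 libraries, and LG was higher in 4 of 4 pairs, by 0.62, 0.086, 0.060 and 0.14 on the log2 scale. With the block its log2 fold change was 0.22 (SE 0.0887, edgeR, Benjamini-Hochberg adjusted p = 0.309). Pgd, the next NADPH-making step, had 134, 123, 137 and 125 CPM in LG, against 117, 123, 127 and 138 CPM in HG, and H6pd, which begins the oxidative arm inside the endoplasmic reticulum, averaged 6.40 ± 1.61 CPM in LG and 6.01 ± 1.17 CPM in HG (SD, n = 4 each).

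In the non-oxidative arm, Rpe, the epimerase that turns ribulose 5-phosphate into xylulose 5-phosphate, was the enzyme with the smallest p. The gene lies at chr1:66700831-66719805, plus strand (GRCm38). Rpe had 41.4, 43.1, 36.3 and 46.3 CPM in LG libraries 1 to 4, against 54.6, 50.8, 45.4 and 45.8 CPM in HG libraries 1 to 4. LG was lower in pairs 1 to 3 and level in pair 4, where LG 4 slightly exceeded HG 4 and HG 3, so the groups overlapped. Rpe averaged 41.8 ± 4.18 CPM in LG and 49.2 ± 4.38 CPM in HG (SD, n = 4 each). Its log2 fold change was -0.23 without the block (unadjusted p = 0.0349 by edgeR) and -0.24 with it (SE 0.0741, unadjusted p = 0.00888, edgeR, Benjamini-Hochberg adjusted p = 0.209), and -0.11 with the offsets added. Rpe is among 12 enzymes whose exons overlap a gene on the opposite strand, here Kansl1l, and the strand setting of the counts is not given in the sources used here. Rpia, which makes ribose 5-phosphate from the same substrate, was at 14.0, 16.4, 16.8 and 16.6 CPM in LG, against 15.2, 17.1, 16.9 and 16.4 CPM in HG, with a log2 fold change of -0.043.

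Tkt, the transketolase, had 362, 357, 348 and 319 CPM in LG, against 288, 316, 321 and 343 CPM in HG, highest in LG 1 and lowest in HG 1. Taldo1 had 203, 174, 206 and 183 CPM in LG, against 164, 163, 182 and 194 CPM in HG, with the same pattern of 3 higher pairs and 1 lower. Log2 fold changes were 0.13 for Tkt and 0.12 for Taldo1 (edgeR with the block, Benjamini-Hochberg adjusted p = 0.475 and 0.472). Together the 8 pentose phosphate genes took 0.0891% ± 0.00153 of counts in LG and 0.0833% ± 0.00506 in HG (SD, n = 4 each).

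Of the glycogen enzymes none passed, and 3 of 4 were higher in LG in all 4 pairs, namely Gys1, Pygb and Ugp2, and Gbe1 in 3 pairs. Over the 36 enzymes, 6 were higher in LG in 4 of 4 pairs (16.7%), against 10.8% of all genes, and 0 were lower in 4 of 4, against 11% of all genes. The other 3 of the 6 were Hk2, Pfkfb3 and Pgls. Hk2 was nearly level in pairs 1 and 2, at log2 differences of 0.0066 and 0.00062. With the GC and length trend of each library removed, 2 of the 4 glycogen genes, Gys1 and Pygb, were higher in LG in all 4 pairs, and the glycogen median in pair 4 was -0.046, against 0.032 before. Of all 36 enzymes, 6 were then higher in LG in all 4 pairs, and 1, Rpe, was lower in all 4. Hk2 and Ugp2 had left the 6, and Bpgm and Gfpt1 had entered. The matching shares of all genes are not given here. Gys1, the glycogen synthase of most tissues outside the liver, was the one enzyme whose groups did not overlap, with every LG library above every HG library (2.78% of the members, against 1.07% of all genes, and 1.82% of all genes with every LG library below). Gys1, at chr7:45434844-45456619, plus strand (GRCm38), had 60.5, 61.4, 62.2 and 59.3 CPM in LG libraries 1 to 4, against 48.2, 52.5, 56.6 and 58.0 CPM in HG libraries 1 to 4. The LG libraries lay close together, and HG was lowest in library 1. Gys1 averaged 60.8 ± 1.23 CPM in LG and 53.8 ± 4.44 CPM in HG (SD, n = 4 each), with a log2 fold change of 0.18 without the block (unadjusted p = 0.0391 by edgeR) and 0.18 with it (SE 0.0646, edgeR, Benjamini-Hochberg adjusted p = 0.260), neither of which passed, and 0.12 with the offsets added. Its exons overlap those of Ruvbl2, a gene on the opposite strand at 93.3 CPM.

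Pygb, the brain-type glycogen phosphorylase, had 179, 158, 36.9 and 32.4 CPM in LG libraries 1 to 4, against 129, 153, 29.9 and 31.4 CPM in HG libraries 1 to 4. Libraries 1 and 2 of both groups stood far above libraries 3 and 4, and within each pair LG was higher, by 0.47, 0.044, 0.30 and 0.043 on the log2 scale. The log2 fold change was 0.22 with the block (SE 0.0775, edgeR, Benjamini-Hochberg adjusted p = 0.257). Ugp2, which makes the UDP-glucose that glycogen synthase adds, was at 71.6, 66.0, 37.5 and 34.3 CPM in LG, against 67.9, 64.1, 36 and 33.6 CPM in HG, again high in libraries 1 and 2 of both groups, and its log2 fold change was 0.052 in the fit with the block but 0.18 once offsets were added. Gbe1 was at 13.2, 13.3, 10.7 and 9.03 CPM in LG, against 12.2, 12.6, 10.0 and 10.6 CPM in HG, with a log2 fold change of 0.011. Of the neighbouring routes, Gfpt1, the rate-setting enzyme of hexosamine synthesis, had 108, 127, 138 and 151 CPM in LG, against 118, 129.7, 128 and 134 CPM in HG, and Galk1, the galactokinase, 14.2, 13.2, 14.3 and 14.6 CPM in LG, against 10.9, 12.5, 13.6 and 14.9 CPM in HG. Their log2 fold changes were 0.031 for Gfpt1 and 0.12 for Galk1.

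Between culture preparations several enzymes differed by large factors. By edgeR's quasi-likelihood F test of the preparation code in a model with glucose, 8 of 36 enzymes differed (22.2%) at a Benjamini-Hochberg adjusted p under 0.05, against 13.7% of all genes. Pygb averaged 155 CPM in preparation A, 33.4 in B and 31.9 in C, a 4.73-fold difference of A over the mean of B and C (edgeR F test, Benjamini-Hochberg adjusted p = 1.77e-07). Ugp2 averaged 67.4, 36.8 and 34.0 CPM in A, B and C (1.91-fold, edgeR, Benjamini-Hochberg adjusted p = 1.11e-05), and Pfkfb3 36.2, 17.1 and 16.8 CPM in A, B and C (2.13-fold, adjusted p = 3.07e-05). Aldoc averaged 329.7, 233 and 210.1 CPM in A, B and C (1.49-fold, edgeR, Benjamini-Hochberg adjusted p = 0.00279). These 4 genes passed in each of the 8 fits that left out a single library.

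The remaining 4, Hk2, Pfkp, Bpgm and H6pd, had lower means in preparation A than in B and C. Hk2 averaged 9.16 CPM in A, 10.3 in B and 13.8 in C (adjusted p = 0.0323 by edgeR, Benjamini-Hochberg), and Pfkp stood in A at 0.788 times the mean of B and C, Bpgm at 0.823 times and H6pd at 0.702 times (edgeR, Benjamini-Hochberg adjusted p = 0.0230, 0.0295 and 0.0404). Each of these 4 lost its call in at least 5 of 8 fits without a single library, with 4 to 6 enzymes called in all. Gys1 did not pass between preparations (adjusted p = 0.667 by edgeR, Benjamini-Hochberg).

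Markers of other cells differed between the same preparations. All 7 astrocyte markers passed the same F test, which has no direction. Their summed level was 1422 to 1546 CPM in A and 468 to 613 CPM in B and C. Gfap averaged 71.3 CPM in A and 3.55 CPM in B and C, Aqp4 109 and 4.50 CPM, and Gja1 95.5 and 3.35 CPM. Sox9 did not follow this split, at 284 to 309 CPM in A, 292 and 318 CPM in B and 210 and 237 CPM in C. The summed oligodendrocyte markers were at 151 to 191 CPM in A and 43.5 to 59.3 CPM in B and C. The progenitor markers summed to 5920 to 7023 CPM in A and 9213 to 9864 CPM in B and C. Fibroblast markers were also lower in A, at 25.2 to 33.3 CPM against 38.2 to 41.6 CPM in B and C, nearly all of it Fbln1. Neuron markers overlapped, at 52.2 to 62.9 CPM in A and 58.2 to 73.4 CPM in B and C. The summed mural markers were at 31.3 to 51.4 CPM in A and 8.56 to 10.7 CPM in B and C. Most of the mural sum was Notch3, at 40.0 CPM in A and 7.91 CPM in B and C. Pdgfrb averaged 4.58 and 0.184 CPM, and both genes passed. Rgs5 (0.203 and 0.217 CPM) and Acta2 (0.827 and 1.19 CPM) were not higher in A, and Kcnj8 was barely counted. The part of these cells in the levels of Pygb, Ugp2, Pfkfb3 and Aldoc was not tested.

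**Figure D4:**
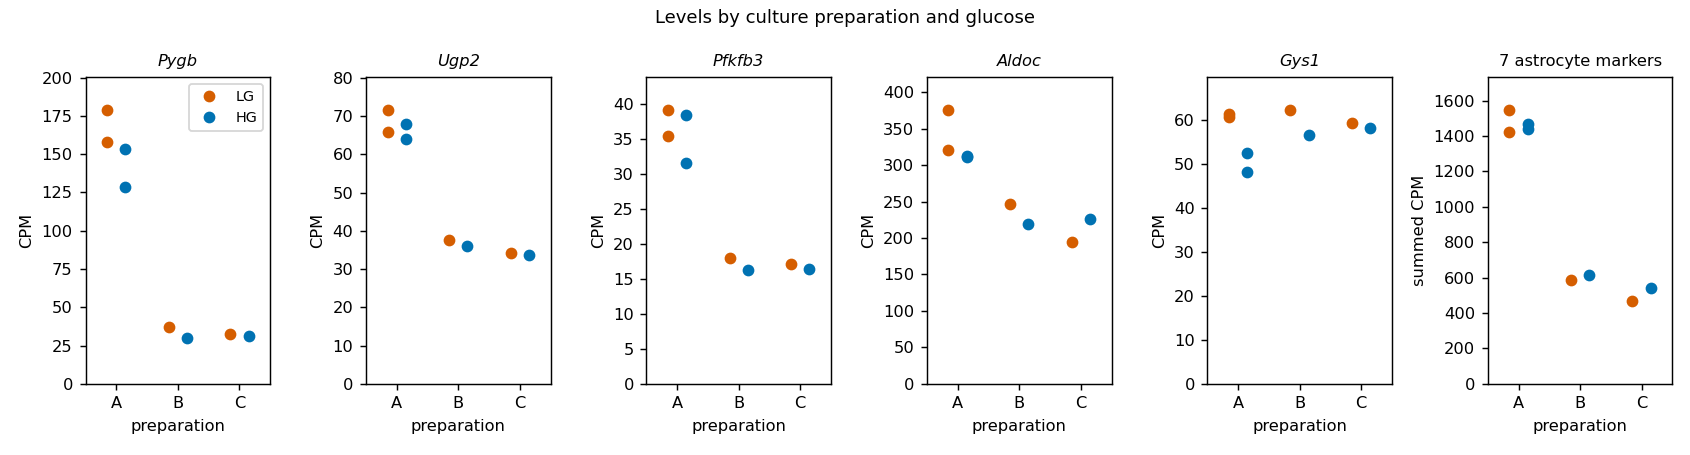
CPM of Pygb, Ugp2, Pfkfb3, Aldoc and Gys1 and the summed CPM of 7 astrocyte markers (vertical axes) in preparations A, B and C, with LG libraries left of HG libraries and 1 point per library. Pygb, Ugp2, Pfkfb3, Aldoc and the astrocyte marker sum stand highest in preparation A in both groups. For Gys1 every LG library lies above every HG library, as for 1.07% of all genes. Its difference did not pass (edgeR with the block, Benjamini-Hochberg adjusted p = 0.260).

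The promoters of the 3 enzymes with the smallest p between preparations are shown as sequence only. Whether these promoters have a part in the pattern over libraries was not tested. They run from 250 bases before to 50 after the annotated start (RefSeq, GRCm38.p6), are written 5′ to 3′ on the gene's strand, and lie at chr2:150786546-150786845 on the plus strand for Pygb, chr11:21371218-21371517 on the minus strand for Ugp2 and chr2:11553880-11554179 on the minus strand for Pfkfb3. RefSeq lists 1 start for Pygb and 2 each for Ugp2 and Pfkfb3, of which the one nearest to the gene's annotated 5′ end is shown. Capitals mark matches on either strand to ACGTG, the core of the hypoxia response element, or to GGGCGG, the GC box bound by Sp factors.
Pygb: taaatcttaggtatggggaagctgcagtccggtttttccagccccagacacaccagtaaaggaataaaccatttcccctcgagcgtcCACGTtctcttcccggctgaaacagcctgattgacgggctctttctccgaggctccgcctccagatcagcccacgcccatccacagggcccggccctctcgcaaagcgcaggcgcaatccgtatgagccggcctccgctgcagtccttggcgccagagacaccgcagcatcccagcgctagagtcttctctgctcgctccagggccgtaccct
Ugp2: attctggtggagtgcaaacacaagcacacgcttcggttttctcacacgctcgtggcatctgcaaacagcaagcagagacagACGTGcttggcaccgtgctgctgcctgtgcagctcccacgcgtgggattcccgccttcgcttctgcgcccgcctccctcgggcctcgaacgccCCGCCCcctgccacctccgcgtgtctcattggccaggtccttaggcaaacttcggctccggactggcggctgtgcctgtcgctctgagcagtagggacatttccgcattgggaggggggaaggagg
Pfkfb3: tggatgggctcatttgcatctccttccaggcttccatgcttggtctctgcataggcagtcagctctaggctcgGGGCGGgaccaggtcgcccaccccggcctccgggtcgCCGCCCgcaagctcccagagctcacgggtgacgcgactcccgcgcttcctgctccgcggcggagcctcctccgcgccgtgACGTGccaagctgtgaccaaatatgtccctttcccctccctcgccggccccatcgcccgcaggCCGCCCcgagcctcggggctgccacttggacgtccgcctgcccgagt
Each sequence shown holds 1 ACGTG match. The Pygb promoter holds no GGGCGG match, that of Ugp2 holds 1 and that of Pfkfb3 holds 3. At the start not shown, Ugp2 has 0 ACGTG and 2 GGGCGG matches, and Pfkfb3 2 and 2, with 1 CACGTG match. Over 52 RefSeq promoters of the 36 enzymes, ACGTG was present in 40.4% and GGGCGG in 63.5%, against 19.6% and 35.7% of all 32851 promoters of the same length. That background was not matched to the enzymes for expression or GC content, so the excess cannot be assigned to these pathways. CACGTG, the E-box, which contains ACGTG, was present in 9.62% of the enzyme promoters and 7.15% of all. A match is a string of letters and no measured binding site.

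None of the other genes of these pathways passed between LG and HG either. Of 64 further genes of glycolysis, gluconeogenesis and sugar handling, 52 passed the filter on low counts, and 0 passed in LG against HG with or without the block by edgeR. The log2 fold change with the block was positive for 36 and negative for 16, which is 69.2% positive against 50.4% of all genes, with a median of 0.052, against 0.0015 for all genes. An unadjusted p under 0.05 was found for 6 with the block (11.5%, against 13.4% of all genes) and 4 without it (7.69%, against 3.94%). Fbp1, a gluconeogenic fructose bisphosphatase, had 3.98, 3.44, 3.73 and 3.68 CPM in LG, against 2.80, 3.02, 3.10 and 3.36 CPM in HG, with every LG library above every HG library (log2 fold change 0.27, edgeR with the block, Benjamini-Hochberg adjusted p = 0.396). Ppp1r3c, which brings a phosphatase to glycogen, was at 30.7, 28.2, 7.45 and 4.56 CPM in LG, against 23.6, 25.4, 5.43 and 4.38 CPM in HG (log2 fold change 0.26, edgeR with the block, Benjamini-Hochberg adjusted p = 0.225). It too was higher in preparation A, by 5.03-fold over the mean of B and C (edgeR F test, Benjamini-Hochberg adjusted p = 2.97e-07).

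Of these 52 genes, 3 had every LG library above every HG library (5.77%, against 1.07% of all genes), and 0 the reverse. Beside Fbp1 they were Gyg and Phkg2, genes of glycogen metabolism that are named after their values were seen. Gyg, glycogenin, the protein primer of glycogen, had 97.7, 91.4, 98.0 and 90.6 CPM in LG, against 80.8, 79.9, 87.9 and 84.8 CPM in HG. Phkg2, a catalytic subunit of phosphorylase kinase, had 25.4, 26.3, 25.3 and 26.2 CPM in LG, against 19.9, 22.9, 22.6 and 24.1 CPM in HG. The groups did not overlap for either gene, and neither passed (edgeR with the block, Benjamini-Hochberg adjusted p = 0.209 for Gyg and 0.230 for Phkg2).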

How the data were processed

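Per the labels, 8 libraries of 150 bp paired-end reads were made from 100 ng of total RNA each. Values are raw read counts for each Ensembl gene as the authors deposited them, with no normalization. Per the submitters' processing notes, CASAVA 1.8.2, STAR, featureCounts, DESeq2 and mm10 were involved, in roles that the notes used here leave out. No source used here gives the strand setting, the annotation version or how multiply matching reads were handled. IDs took names from GENCODE M21 (GRCm38), which matched 52073 and left 4907 unnamed. A further ID also named Aldoa held 0.384% of Aldoa's counts and was left out.

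Counts were tested in R 4.3.3 with edgeR 4.0.16 (filterByExpr, TMM, robust quasi-likelihood F test, Benjamini-Hochberg, threshold 0.05). SE is the log2 fold change divided by the square root of F. GC and length trends were removed with mgcv 1.9.3 as offsets (GC content known for 97.5% of tested genes). DESeq2 1.42.0, other filters and scaling, sums per preparation and left-out libraries were alternatives. Isoform ratios were taken from the raw counts within each library, with no constant added, and used two-sided exact permutation over 70 assignments. Near-identical copies were found with blastn 2.17.0 (at least 95% identity over 150 bases and 50% of the copy). Checks ran on simulated counts.

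The titles number libraries 1 to 4 in each group. Deviations from group means correlated at r of 0.448 to 0.625 across genes between same-numbered libraries and at most 0.419 between different numbers, and 8 of 8 libraries correlated best with their own number, so the numbers were taken to pair them. Replicates of a group differed beyond sampling noise (chi-square per degree of freedom at least 19.1). The members and lists were chosen with earlier results of these data known. Values in every library are given for the most abundant isoform of each step, for members with an unadjusted p under 0.05 in either fit and for the 3 largest fold changes; of the other pathway genes, the rule names the 3 largest when none passes, and 1 of them is not reported here.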

Additional observations from a re-analysis of the deposited data

Results flagged for a closer look

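In 86 groups of 4 libraries, made of the enzymes and their summed measures, 1 held a library far from the other 3 by Dixon's criterion at its 95% critical value, where chance gives about 1 in 20 groups, or 4.3 here. The library was LG 1 for Rpia, the ribose 5-phosphate isomerase, with a log2 CPM of 3.81, against 4.04 to 4.07 in the other LG libraries. Its log2 fold change in LG against HG was -0.043 with the block and did not pass.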

How the results depend on the processing

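The count of 0 enzymes past the threshold in LG against HG held in every alternative tried, with the smallest adjusted p at 0.0537 (edgeR, Benjamini-Hochberg) without pair 4. The number of all genes called was 0, against 79 with the replicate block, 148 with the replicate block and the GC and length offsets, 1 with a preparation block, 7 by DESeq2 and 17 on sums per preparation, and ran from 0 to 148 when single libraries or pairs were left out. With the offsets and the block, Aldoa (-0.0021), Tpi1 (-0.016), Pgam1 (-0.020) and Pkm (-0.018) took the opposite sign on the log2 scale. The offsets alone reversed Tpi1 (-0.013), Pgam1 (-0.017) and Pkm (-0.014). Sums per preparation reversed Tpi1 (-0.014), Pgk1 (-0.000774), Pgam1 (-0.013), Tigar (0.00697) and Gbe1 (-0.00804). The cause was not tested.

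Over 22 settings, 23 to 32 of the 36 enzymes had a positive log2 fold change, and 18 never changed sign. With a library or a pair left out, the log2 fold changes that changed sign ranged as follows: Aldoa -0.0041 to 0.16, Aldoc -0.077 to 0.23, Tpi1 -0.060 to 0.11, Pgk1 -0.027 to 0.13, Pgam1 -0.067 to 0.074, Pfkfb3 -0.13 to 0.38, Rpia -0.072 to 0.015, Gbe1 -0.053 to 0.12, Pygb -0.18 to 0.71, Ugp2 -0.13 to 0.23, Pfkfb2 -0.067 to 0.14, H6pd -0.061 to 0.21, Hk2 -0.027 to 0.28, Gfpt1 -0.035 to 0.12, Tigar -0.067 to 0.030, Pfkfb4 -0.12 to 0.023 and Pgd -0.0089 to 0.10. The log2 ratio differences that changed sign ranged from Hk2/Hk1 -0.16 to 0.15, Pfkm/Pfkl -0.012 to 0.19, Aldoc/Aldoa -0.079 to 0.077, Eno2/Eno1 -0.11 to 0.17, Ldhb/Ldha -0.064 to 0.15 and Pfkfb3/Pfkfb2 -0.18 to 0.33. Without the block, leaving out a library unbalances the preparations, and lone libraries are assumed to vary like the others. Enzymes that differed between preparations numbered 4 to 6 with a library left out, and genes 1575 to 2162. With 3 preparations, small differences are beyond what these libraries resolve, and the preparation fits rest on 2 libraries each in B and C.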
